A study of Mus musculus with 8 samples.

Results

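Expression of 44 genes of cAMP, protein kinase A (PKA) and G protein signalling was compared between the dorsal cortex of E15.5 mouse embryos labelled WT and ErbB4 KO. The genes were taken by symbol from the deposited count tables, which hold 23284 symbols, and were kept if they had 10 or more counts in 4 or more libraries. All 44 met this rule, and all 44 also passed edgeR's filter on low counts, which left 14696 genes for testing. Each genotype had 4 libraries from C57BL/6 embryos with no treatment. The ErbB4 KO genotype is given as ErbB4 -/-, and these mice carry an ErbB4 transgene that the α-MHC promoter drives in the heart, which rescues them from embryonic death. WT and ErbB4 KO mice were bred as separate homozygous colonies, so the colony and the genotype cannot be told apart. By the authors' dissection, the tissue was to hold neither ganglionic eminence nor meninges. Litters were not stated, and p-values measure only the spread between these samples. In such bulk tissue, fewer cells of a type and less RNA per cell cannot be told apart.

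In this pathway a G protein-coupled receptor switches a heterotrimeric G protein, and the freed α subunit then stimulates or inhibits adenylyl cyclase, the enzyme that makes cAMP from ATP. cAMP binds the regulatory subunits of PKA and releases the catalytic subunits, which phosphorylate channels, enzymes and the transcription factor CREB. Phosphodiesterases (PDEs) break cAMP down, and RGS proteins shorten the signal by speeding GTP hydrolysis on the α subunits. In the developing cortex the pathway is known for its roles in axon growth and guidance, in neuronal migration and in the maturation of synapses.

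CREB-family factors bind the cAMP response element, whose full letters TGACGTCA are their own reverse complement and whose core is TGACG on either strand. RefSeq promoter windows (GRCm38.p6, 250 bases before to 50 after each start) were found for 39 of the 44 genes, and were not found for Adcy6, Adcy8, Gnal, Gnai2 and Crem. The full letters occurred in 2 of the 39 (5.13%), against 3.5% of the 10374 tested genes with a window. The core, which is also part of the full letters, occurred in 17 of the 39 (43.6%), against 34.2% of the tested genes. A gene counts if any of its windows matched, and the 39 genes had 74 windows against 13297 for the 10374 tested genes, so more sequence was searched per gene of the module. The windows of Adcy1, Prkar2b, Gng2 and Gabbr2 held neither. The stretches of 30 bases below are shown, each 5′ to 3′ on the strand of its gene with the matched letters in capitals, because they hold the full element or the core in a gene whose libraries did not overlap between genotypes.
Prkar1a: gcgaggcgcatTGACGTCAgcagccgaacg
Creb5: ggaatcccacgTGACGTCAccgggggggtg
Adcy9: cggacccggcggTGACGtgcgcgggccgcg
By exact match to mm9, the Prkar1a stretch lies at chr11:109512203-109512232 on the plus strand, in an intron of the GENCODE gene model, and its element begins 49 bases before one RefSeq start and at base 39 of the transcript from another. The Creb5 stretch lies at chr6:53237241-53237270 on the plus strand, 45 bases before a RefSeq start, but 286108 bases upstream of the GENCODE gene model and in no annotated gene. The Adcy9 stretch lies at chr16:4420505-4420534 on the minus strand, 7 bases upstream of the GENCODE gene model.

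Totals were from 28205703 to 48871480 counts per library. Values per library are CPM, counts scaled to library size by edgeR's TMM normalization. The targeted gene was not lower in the libraries labelled ErbB4 KO. Erbb4 had 8.99, 19.9, 25.3 and 19.2 CPM in WT replicates 1 to 4 and 20.9, 24.6, 20.7 and 23.5 CPM in ErbB4 KO replicates 1 to 4. Gene totals do not show which exons were read, so these values do not check the genotype, and each direction given here is between libraries as labelled. WT replicate 1 stood apart, with a score of -38.9 on the first principal component of all tested genes (30.6% of the variance) against -6.07 to 15.48 in the other 7 libraries. Xist, the RNA of the inactive X chromosome, was at 983 to 1687 CPM in WT replicates 1 to 3 and at 2.70 to 3.82 CPM in the other 5 libraries, whereas the Y-linked Ddx3y was at 0.257 to 0.495 CPM in the former and at 76.4 to 80.9 CPM in the latter. WT replicate 4 was thus the only WT library like the ErbB4 KO libraries in these genes, and beyond it sex and genotype cannot be told apart.

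No gene of the module passed the test between genotypes, and most differences were small. The log2 fold changes of ErbB4 KO over WT were from -0.13 (Rgs4, a GTPase activator of Gi and Gq subunits) to 0.44 (Adcy1, a calcium- and calmodulin-stimulated adenylyl cyclase). With edgeR's quasi-likelihood test and Benjamini-Hochberg adjustment, 0 of the 44 had an adjusted p under 0.05, against 0.0272% of all genes tested (4 genes), and DESeq2 (0.163% of all genes) and limma-voom (0.0272%) also called 0 of the 44. An unadjusted p under 0.05 from edgeR was seen in 5 of the 44 (11.4%), against 5.53% of all genes. These 5 were Adcy1, Gabbr2, Gnal, Gng2 and Prkar2b, and all were higher in ErbB4 KO, which 3% of all genes were at that threshold. The libraries of the genotypes did not overlap for 2 of the 44, Adcy9 and Gng2 (4.55%), against 3.34% of all genes.

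By sign alone, 33 of the 44 (75%) were higher in ErbB4 KO, against 49.2% of all genes tested, and the median log2 fold change was 0.05, against -0.0022 for all genes. Without WT replicate 1 the median was 0.03, 33 were higher and 4 had an unadjusted p under 0.05 (9.09%, against 5.93% of all genes), with Gnai1 in and Gabbr2 and Gnal out. By class, the median log2 fold change was 0.16 for the 3 receptors, 0.10 for the 8 adenylyl cyclases, 0.07 for the 6 PKA subunits, 0.06 for the 8 PDEs and 0.02 for the 8 Gα subunits. It was 0.0045 for the 3 Gβ and Gγ subunits, 0.0046 for the 5 genes of CREB and ATF factors and the coactivator, and -0.08 for the 3 RGS genes. Without WT replicate 1 these medians were 0.08 for the receptors, 0.045 for the cyclases, 0.05 for the PKA subunits, 0.04 for the PDEs, 0.0085 for the Gα subunits, 0.05 for the Gβ and Gγ subunits, -0.0038 for the CREB and ATF genes and -0.07 for the RGS genes. Without WT replicate 2 they were 0.16 for the cyclases and 0.11 for the PDEs, and the median of all 44 was 0.08. That of the Gβ and Gγ subunits was below 0 without WT replicate 3 (-0.010) or 4 (-0.013) and without ErbB4 KO replicate 1 or 2 (-0.0028 each). That of the RGS genes was above 0 with the Xist covariate (0.023). The count at an unadjusted p under 0.05 moved with single libraries. It was 8 without ErbB4 KO replicate 4 (7.73% of all genes) and 3 without WT replicate 4 (4.95%). It was 2 without WT replicate 3 (5.78%) or ErbB4 KO replicate 1 (3.63%), and 1 without ErbB4 KO replicate 2 (2.9%) or 3 (3.43%). With the Xist level as a covariate it was 0 (1.68% of all genes). Xist was high in every WT library but replicate 4 and low in every ErbB4 KO library. In that fit the genotype difference rests largely on WT replicate 4, so the part of sex cannot be told apart.

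**Figure D1:**
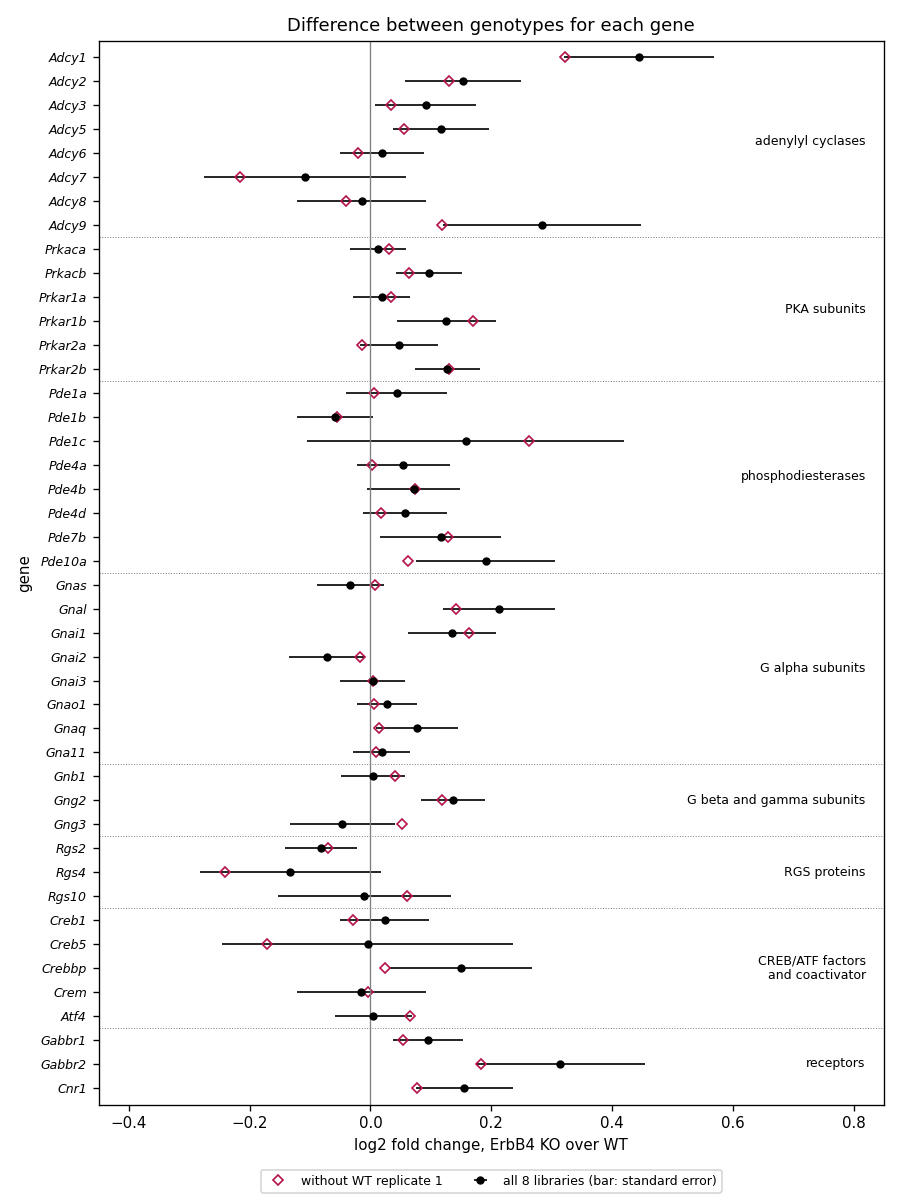
Log2 fold change of ErbB4 KO over WT (x axis) for each of the 44 genes (y axis, by class). Black points with bars are the edgeR estimate and its standard error from all 8 libraries, and open diamonds are the estimate without WT replicate 1. Adcy1 lies farthest to the right at 0.44, and its diamond is at 0.32.

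The calcium-stimulated cyclase gene Adcy1 had the largest difference of the module. It had 114, 184, 157 and 168 CPM in WT replicates 1 to 4 and 212, 231, 221 and 184 CPM in ErbB4 KO replicates 1 to 4. ErbB4 KO replicates 1 to 3 were above every WT library, and ErbB4 KO replicate 4 was level with WT replicate 2, the highest of its group. The means were 156 ± 29.9 and 212 ± 20.5 CPM (SD, n = 4 each), a log2 fold change of 0.44 (SE 0.12, unadjusted p = 0.00404, adjusted p = 0.81 from edgeR). Its adjusted p was from 0.174 (DESeq2) to 1.00 across the alternatives. Without WT replicate 1 the log2 fold change was 0.32 (unadjusted p = 0.00137). The unadjusted p of Adcy1 stayed under 0.05 with each library left out in turn and was not under 0.05 with the Xist covariate. The log2 fold change with that covariate was 0.36, in a fit where genotype rests largely on WT replicate 4.

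Adcy9, a cyclase insensitive to calcium and calmodulin, was at low levels, with 5.21, 9.82, 8.84 and 9.63 CPM in WT and 9.97, 10.54, 10.2 and 10.2 CPM in ErbB4 KO. All 4 ErbB4 KO libraries were above all 4 WT libraries. The margin was narrow, and WT replicate 1 alone was far below the rest. The log2 fold change of Adcy9 was 0.28 (SE 0.16, unadjusted p = 0.109 from edgeR) and 0.12 without WT replicate 1. The Gi-inhibited cyclase gene Adcy5 had 57.0 to 72.1 CPM in WT and 68.0 to 75.3 in ErbB4 KO (log2 fold change 0.12, SE 0.079, and 0.06 without WT replicate 1). Its close relative Adcy6 had 73.6 to 87.7 CPM in WT and 74.9 to 87.7 in ErbB4 KO (0.02, SE 0.070). The groups overlapped for both.

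Among the other cyclases, Adcy2, which Gβγ subunits stimulate, had 16.9 to 19.3 CPM in WT and 16.6 to 21.7 in ErbB4 KO (log2 fold change 0.15, SE 0.096). Adcy3, the cyclase of olfactory neurons and neuronal primary cilia, had 20.97 to 27.3 and 24.8 to 26.6 CPM (0.09, SE 0.083, and 0.03 without WT replicate 1). Its exons overlap those of Cenpo on the opposite strand over 1380 nt, and in libraries that keep no strand the reads of the pair cannot be told apart there. Adcy7 and the calcium-stimulated Adcy8 were lower by sign, at -0.11 (SE 0.17) and -0.01 (SE 0.11), with 3.32 to 5.68 CPM and 5.92 to 7.16 CPM over the 8 libraries.

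Within a library, Adcy1 made up a larger share of the cyclase transcripts in ErbB4 KO. The share is the CPM per kilobase of the longest annotated transcript, as a percentage of the sum over the 8 cyclases, and this comparison was chosen after its values were seen, so it carries no test. The Adcy1 share was 23.1, 27.96, 27.4 and 27.5% in WT replicates 1 to 4 and 31.5, 32.5, 33.5 and 29.9% in ErbB4 KO replicates 1 to 4. The share of Adcy6 was 30.4, 27.2, 27.9 and 27.2% in WT and 25.2, 25.1, 23.1 and 26.5% in ErbB4 KO. Neither share overlapped between the genotypes, and Adcy1 was above Adcy6 in all 4 ErbB4 KO libraries and in WT replicates 2 and 4. The smaller shares of Adcy7 (1.35 to 1.73% in WT and 1.14 to 1.30% in ErbB4 KO) and Adcy8 (2.59 to 3.02% and 2.03 to 2.52%) did not overlap either. Shares sum to 100%, so a larger share of Adcy1 lowers the others.

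**Figure D2:**
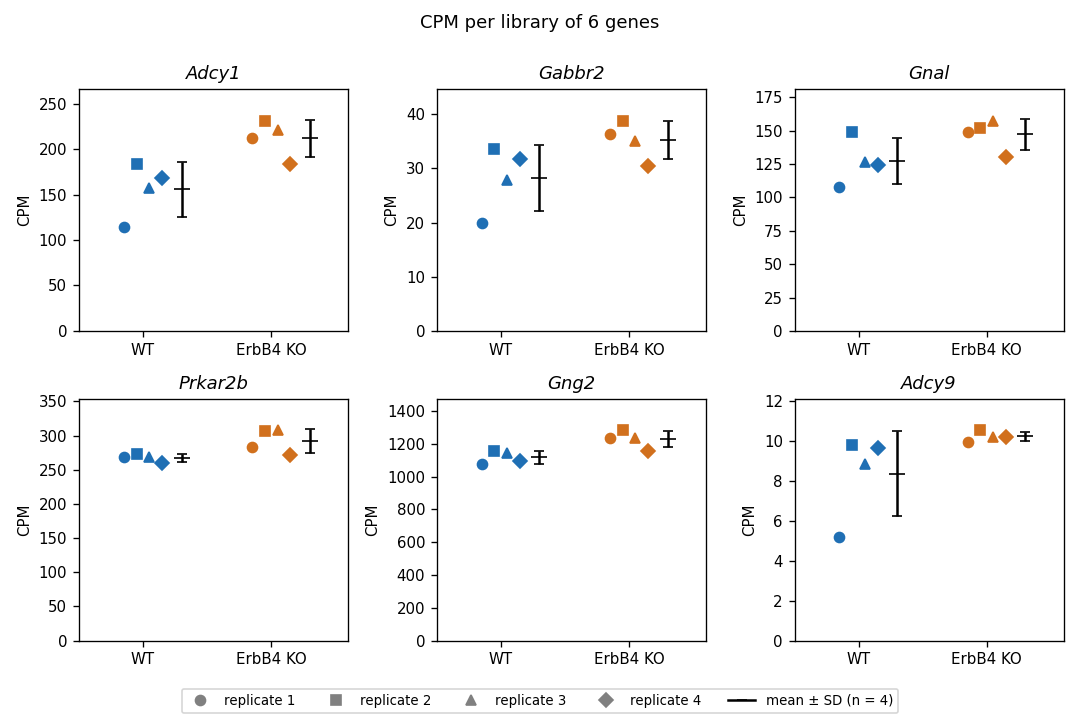
CPM per library (y axis, from 0) of the 5 genes with an unadjusted p under 0.05 in edgeR's test and of Adcy9, in WT and ErbB4 KO (x axis). Each marker is a library, its shape gives the replicate number, and the bars to the right are the mean ± SD of 4 libraries. In Gng2 and Adcy9 every ErbB4 KO library lies above every WT library, and in Adcy1, Gabbr2, Gnal and Prkar2b the groups overlap.

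All 6 genes of PKA subunits were higher in ErbB4 KO by sign, with log2 fold changes from 0.01 to 0.13, although Prkar2a turned without WT replicate 1 and with the Xist covariate. None passed the test. Prkar2b, the type II regulatory subunit typical of brain, had 269, 273, 268 and 260 CPM in WT and 283, 306, 308 and 272 CPM in ErbB4 KO. The WT libraries were tightly grouped, and ErbB4 KO replicate 4 was the only ErbB4 KO library below a WT library. The log2 fold change of Prkar2b was 0.13 (SE 0.054, unadjusted p = 0.0377, adjusted p = 0.81 from edgeR) and it was 0.13 without WT replicate 1. Its unadjusted p was not under 0.05 without WT replicate 3 or 4, without ErbB4 KO replicate 2 or 3, or with the Xist covariate. The other neuronal regulatory subunit, Prkar1b, had 206, 199, 166 and 185 CPM in WT and 224, 218, 202 and 180 CPM in ErbB4 KO. Its groups overlapped, and its log2 fold change was 0.13 (SE 0.082, unadjusted p = 0.153 from edgeR). With each library left out in turn that of Prkar1b was from 0.068 to 0.18.

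The catalytic subunit gene Prkacb, which has neuronal isoforms, had 331, 376.8, 362 and 355 CPM in WT and 376.9, 388, 395 and 365 CPM in ErbB4 KO. ErbB4 KO replicates 1 to 3 were above every WT library, replicate 1 only just (log2 fold change 0.10, SE 0.054, unadjusted p = 0.103 from edgeR). The other catalytic subunit gene, Prkaca, had one of the smallest spreads of the module, at 147 to 157 CPM over the 8 libraries (0.01, SE 0.047). Prkar1a, the most abundant regulatory subunit and the holder of the full response element shown above, was as steady, at 565 to 604 CPM (0.02, SE 0.047). Prkar2a had 110 CPM in WT replicate 1 and 130.1 to 134 CPM in the other 7 libraries (0.05, SE 0.064, and -0.01 without WT replicate 1).

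Of the 8 PDE genes, 7 were higher in ErbB4 KO by sign, of which Pde4a turned with the Xist covariate and Pde1c with a library left out. None had an unadjusted p under 0.05. Pde10a, which hydrolyses cAMP and cGMP and is best known from striatal neurons, had the largest log2 fold change of the class, 0.19 (SE 0.12). It had 83.5, 129.6, 122 and 129.7 CPM in WT and 128, 136, 135 and 131 CPM in ErbB4 KO. The difference lay mostly in WT replicate 1, without which the log2 fold change was 0.06. The cAMP-specific enzymes of the PDE4 family had log2 fold changes of 0.05 for Pde4a (SE 0.077), 0.07 for Pde4b (SE 0.077) and 0.06 for Pde4d (SE 0.070). Without WT replicate 1 those of Pde4a and Pde4d were 0.0029 and 0.017, and without ErbB4 KO replicate 3 the Pde4b log2 fold change was 0.014. Pde7b, which is also cAMP-specific, had 6.72 to 7.51 CPM in WT and 6.83 to 8.30 in ErbB4 KO (0.12, SE 0.10).

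The PDE1 enzymes are switched on by calcium and calmodulin. Pde1b, the most abundant PDE gene per transcript length, was lower by sign in ErbB4 KO, with 119 to 138 CPM in WT and 117 to 133 in ErbB4 KO (log2 fold change -0.06, SE 0.062). Pde1a had 23.9 to 29.8 and 24.4 to 27.9 CPM (0.04, SE 0.084). With each library left out in turn the log2 fold change of Pde1a was from 0.0060 to 0.11, and that of Pde1b from -0.097 to -0.027. Pde1c varied most of all 44 genes, with a coefficient of variation of 33.0% over the 8 libraries. It had 19.6, 20.7, 13.3 and 11.4 CPM in WT and 27.2, 20.02, 11.7 and 12.99 CPM in ErbB4 KO, so that replicates 1 and 2 were above replicates 3 and 4 in both genotypes. Its log2 fold change was 0.16 (SE 0.26), and it was from -0.12 to 0.32 with each library left out in turn.

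Gα subunits fall into the Gs class that stimulates adenylyl cyclase, the Gi and Go class that inhibits it or acts through Gβγ, and the Gq class that drives phospholipase C. Gnal, the Golf subunit that replaces Gs in striatal and olfactory neurons, had the largest difference. It had 107.5, 149, 127 and 124 CPM in WT and 149, 152, 157 and 130.0 CPM in ErbB4 KO. WT replicate 2 was level with ErbB4 KO replicate 1, and ErbB4 KO replicate 4 was near WT replicate 3. The log2 fold change of Gnal was 0.21 (SE 0.093, unadjusted p = 0.0414, adjusted p = 0.81 from edgeR) and 0.14 without WT replicate 1 (unadjusted p = 0.087). The unadjusted p of Gnal was also not under 0.05 without WT replicate 3 or 4, without ErbB4 KO replicate 1, 2 or 3, or with the Xist covariate. Its exons overlap those of Mppe1 on the opposite strand over 365 nt. Gnas, the ubiquitous Gs subunit, had 1112 to 1261 CPM in WT and 1113 to 1175 in ErbB4 KO (-0.03, SE 0.055), and shares 988 nt of exon with the antisense Nespas.

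Of the inhibitory subunits, Gnai1 had 102, 101, 93.5 and 90.8 CPM in WT and 111, 115, 106 and 93.3 CPM in ErbB4 KO. ErbB4 KO replicates 1 to 3 were above every WT library (log2 fold change 0.13, SE 0.073, unadjusted p = 0.0885 from edgeR), and without WT replicate 1 it was 0.16 (unadjusted p = 0.0413). Gnai2 was lower by sign, with 309 to 366 CPM in WT and 301 to 328 in ErbB4 KO (-0.07, SE 0.062, and -0.017 without WT replicate 1). Gnai3 (0.0037, SE 0.053) and Gnao1, the Go subunit abundant in neurons (0.03, SE 0.050), were close to 0. Gnao1 had 603 to 657 CPM in WT and 619 to 662 in ErbB4 KO. The Gq-class genes Gnaq and Gna11 had log2 fold changes of 0.08 (SE 0.068) and 0.02 (SE 0.047), and that of Gnaq was 0.01 without WT replicate 1.

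Gng2 had both an unadjusted p under 0.05 and groups that did not overlap. No other gene of the module had both with the filter, TMM scaling and no library left out. This Gγ subunit gene had 1075, 1157, 1145 and 1098 CPM in WT and 1239, 1283, 1238 and 1159 CPM in ErbB4 KO. ErbB4 KO replicate 4 cleared the highest WT library by a small margin, and under upper-quartile normalization the groups overlapped. With RLE normalization, DESeq2 or no filter Adcy1 also met both, and with no filter so did Prkar2b. Without WT replicate 2, Adcy1, Prkar2b, Gnal and Cnr1 met both besides Gng2. Without ErbB4 KO replicate 4, Adcy1, Adcy2, Prkar2b, Gnal, Gnai1 and Gabbr2 did so. The means were 1118.5 ± 38.8 and 1229.6 ± 51.3 CPM (SD, n = 4 each), a log2 fold change of 0.14 (SE 0.053, unadjusted p = 0.0252, adjusted p = 0.81 from edgeR). The log2 fold change was from 0.12 to 0.16 with each library left out in turn. The unadjusted p of Gng2 was not under 0.05 without ErbB4 KO replicate 1, 2 or 3, or with the Xist covariate. The Gβ subunit gene Gnb1 had 1146 to 1276 CPM in WT and 1164 to 1210.1 in ErbB4 KO (0.0045, SE 0.053). The neuronal Gng3 had 136 to 187 and 143 to 160 CPM (-0.05, SE 0.087), and shares 398 nt of exon with Bscl2.

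The 3 RGS genes were lower in ErbB4 KO by sign with all libraries. Rgs10 turned without WT replicate 1 (0.06) or 2 (0.046) and without ErbB4 KO replicate 3 (0.050) or 4 (0.044). Rgs2 and Rgs10 turned with the Xist covariate. None had an unadjusted p under 0.05. Rgs4 had 42.6, 65.6, 57.3 and 57.9 CPM in WT and 38.2, 57.7, 60.4 and 47.7 CPM in ErbB4 KO. The groups overlapped broadly, and replicate 1 was the lowest library of both genotypes. The Rgs4 log2 fold change was -0.13 (SE 0.15), and with a library left out it was from -0.24 (WT replicate 1) to -0.015 (ErbB4 KO replicate 1). Rgs2, which acts mainly on Gq, had 44.8 to 50.1 CPM in WT and 43.7 to 46.9 in ErbB4 KO (-0.08, SE 0.060). Rgs10, known from microglia and neurons, had 8.10, 7.86, 6.57 and 5.76 CPM in WT and 8.18, 7.55, 6.12 and 6.10 CPM in ErbB4 KO (-0.01, SE 0.14). As with Pde1c, its replicates 1 and 2 were above replicates 3 and 4 in both genotypes.

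None of the 5 genes of transcription factors and their coactivator, at the end of the pathway, had an unadjusted p under 0.05. Creb1, the main target of PKA in the nucleus, had 170, 189, 217 and 189 CPM in WT and 178, 196, 205 and 198 CPM in ErbB4 KO (log2 fold change 0.02, SE 0.074). Atf4, the stress-responsive factor of the family, had 140 to 169 and 145 to 158 CPM (0.0046, SE 0.064). Crebbp, the acetyltransferase that CREB recruits, had 50.4, 78.1, 73.7 and 75.7 CPM in WT and 73.8, 84.7, 74.8 and 75.2 CPM in ErbB4 KO. WT replicate 1 alone was far below the others, and the log2 fold change of Crebbp was 0.15 (SE 0.12) with it and 0.02 without it. Crem, which encodes activators and repressors of the same element, had 9.34 to 10.1 and 7.81 to 10.8 CPM (-0.02, SE 0.11). Creb5, a factor of the same family, ranged from 4.60 to 9.20 CPM in WT and from 4.55 to 10.1 in ErbB4 KO (-0.0043, SE 0.24, and -0.17 without WT replicate 1).

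The receptors of the module couple to Gi and Go. Gabbr2, the subunit of the GABA-B receptor that engages the G protein, had 19.9, 33.5, 27.8 and 31.7 CPM in WT and 36.3, 38.8, 35.1 and 30.4 CPM in ErbB4 KO. ErbB4 KO replicates 1 to 3 were above every WT library, and replicate 4 was below WT replicates 2 and 4. The log2 fold change of Gabbr2 was 0.31 (SE 0.14, unadjusted p = 0.044, adjusted p = 0.81 from edgeR) and 0.18 without WT replicate 1 (unadjusted p = 0.0624). Its unadjusted p was also not under 0.05 without WT replicate 3, without ErbB4 KO replicate 1, 2 or 3, or with the Xist covariate. Gabbr1, the subunit that binds GABA, had 328, 383, 351 and 376 CPM in WT and 393, 393, 378 and 372 CPM in ErbB4 KO (0.10, SE 0.058, and 0.05 without WT replicate 1). Cnr1, the CB1 cannabinoid receptor of growing cortical axons, had 206, 273, 255 and 258 CPM in WT and 259, 293, 282 and 269 CPM in ErbB4 KO (0.16, SE 0.081, and 0.08 without WT replicate 1). The groups overlapped for each of these receptors.

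Levels of different genes were compared only as CPM per kilobase of the longest annotated transcript, which is an approximate length because the isoform used is not known. Averaged over the 8 libraries, the highest levels were those of 4 G protein subunits, with 379 ± 13.4 (SD) for Gnb1, 307 ± 19.0 for Gng2, 292 ± 12.5 for Gnas and 184 ± 5.84 for Gnao1. The ranges of Gng2 (281 to 335) and Gnas (282 to 320) overlapped over both genotypes together. The means of Gng2 and Gnas were 292 and 295 in WT and 321 and 288 in ErbB4 KO, so their order differed between the genotypes. PKA subunits ranged from 168 ± 3.92 for Prkar1a to 32.0 ± 1.92 for Prkar2a, and other Gα subunits lay within or below that range, down to 24.4 for Gnal. The cyclases were lower, with ranges over the libraries of 9.29 to 18.9 for Adcy1 and 12.2 to 14.6 for Adcy6 and a mean of 13.5 ± 0.869 for the latter, down to 0.69 ± 0.12 for Adcy7. Among the α subunits, Gnas made up 34.0% of the summed level in WT and 33.3% in ErbB4 KO, and Gnal 2.61% and 3.03%.

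Within PKA, Prkar1a was 47.8% of the regulatory subunits in WT and 46.2% in ErbB4 KO, and Prkacb was 55.4% and 56.8% of the catalytic subunits. Of the GABA-B receptor subunits, which work as a pair, Gabbr1 was 93.4% in WT and 92.3% in ErbB4 KO. Among the PDEs, Pde1b led with 30.1 ± 1.79 CPM per kilobase, ahead of Pde4d with 17.8 ± 1.19 and Pde10a with 16.1 ± 2.22, and the latter pair overlapped in range. Atf4 at 87.5 ± 5.35 was above Creb1 at 22.9 ± 1.76, and no library of the one overlapped with the other.

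**Figure D3:**
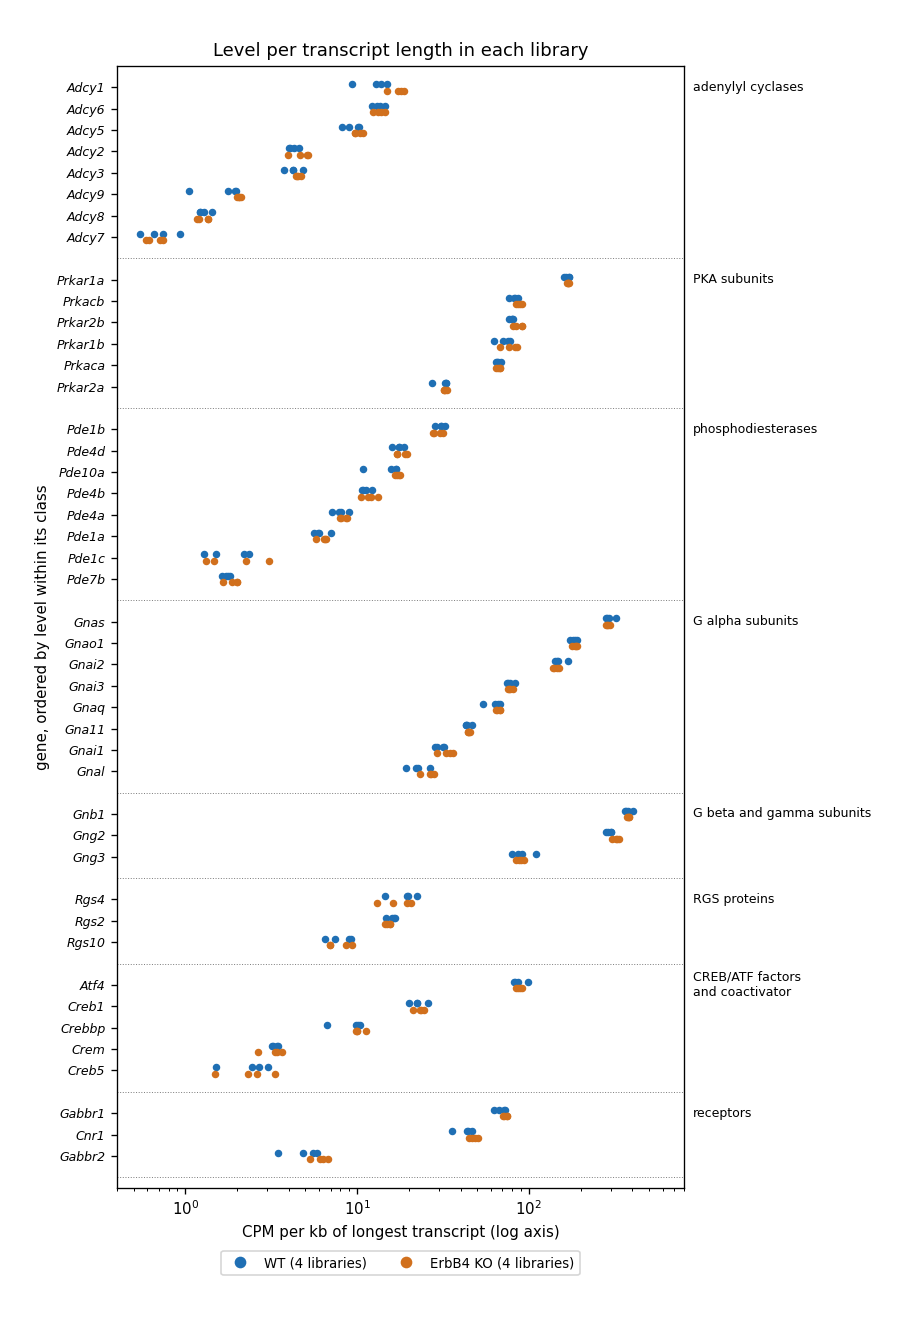
CPM per kilobase of the longest annotated transcript (x axis, log scale) of each of the 44 genes (y axis, ordered by level within each class). Each point is a library, blue for WT and orange for ErbB4 KO. Gnb1, Gng2 and Gnas lie highest, at means of 379, 307 and 292, and Adcy7 lies lowest of the cyclases, at a mean of 0.69.

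WT replicate 1 was the lowest of all 8 libraries in 22 of the 44 genes and the highest in 7. The genes in which it was low were mostly those with long transcripts. It was below the mean of the other 7 libraries in 14 of the 15 genes with a longest transcript over 5000 nt, with a median log2 deviation of -0.30, and in 1 of the 8 genes up to 3000 nt, with a median of 0.13. Over the 44 genes, Spearman's rho of this deviation with transcript length was -0.65, and rho of the genotype difference with length was 0.56, or 0.16 without WT replicate 1. These rank correlations are across genes, which share libraries and are not independent, and carry no test. The module has longer transcripts than the genes tested, with a median of 4209 nt against 3170 nt. With the length trend of each library removed, the median log2 fold change was 0.04 and that of Adcy1 was 0.34. By sign 34 of the 44 (77.3%) were then higher in ErbB4 KO, against 50.1% of all genes. An unadjusted p under 0.05 in edgeR was seen in 6 of the 44 (7.07% of all genes).

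**Figure D4:**
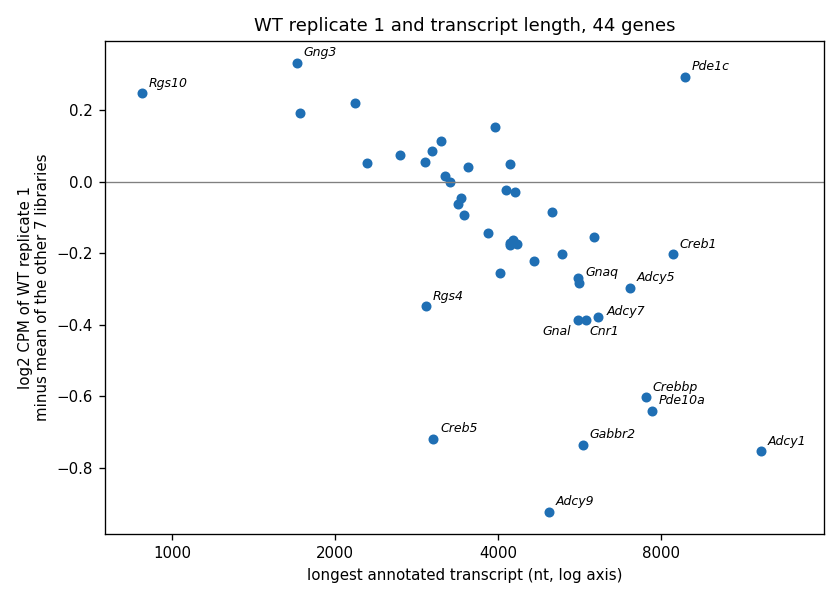
Deviation of WT replicate 1 from the mean of the other 7 libraries (y axis, log2 CPM) against the longest annotated transcript (x axis, nt, log scale), with a point for each of the 44 genes. Adcy1, at 12259 nt, is among the lowest, and Gng3 and Rgs10, with short transcripts, are above 0.

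ErbB4 KO replicate 4 was the library of its genotype nearest to WT. It was the lowest ErbB4 KO library in 21 of the 44 genes and in 5 of the 5 with an unadjusted p under 0.05. Without it, the libraries of the genotypes did not overlap for 10 of the 44 genes (Adcy1, Adcy2, Adcy9, Prkacb, Prkar2b, Pde7b, Gnal, Gnai1, Gng2 and Gabbr2), against 9.97% of all genes, and no adjusted p was under 0.05. Without WT replicate 2 the count was 8 (9.53% of all genes), and without WT replicate 4 it was 4 (5.83%).

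**Figure D5:**
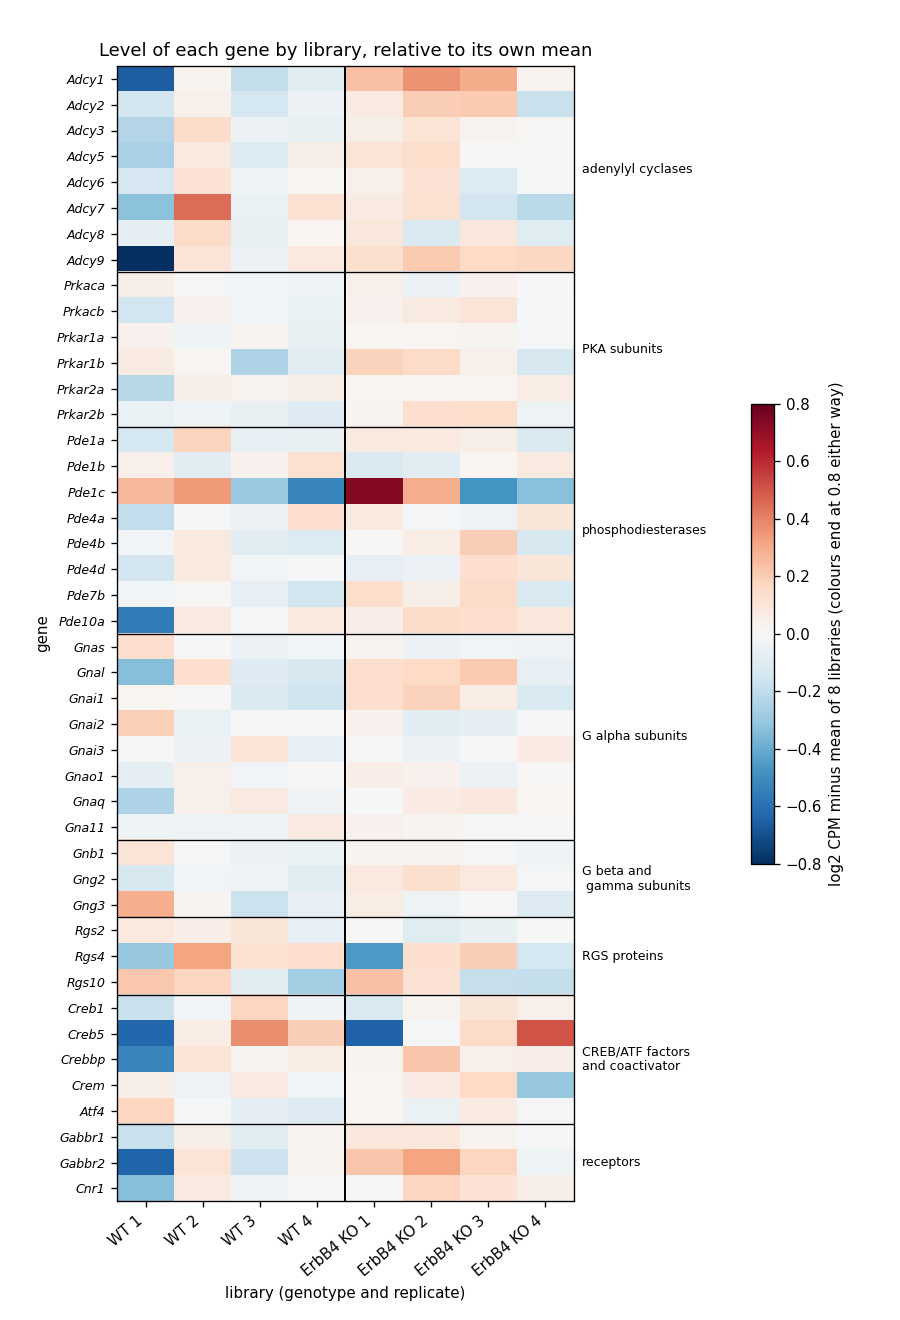
Log2 CPM of each of the 44 genes (rows, by class) in each library (columns) minus the mean of the gene over the 8 libraries, with red above and blue below the mean. WT replicate 1 is dark blue in Adcy1, Adcy9, Pde10a, Creb5, Crebbp and Gabbr2, and ErbB4 KO replicates 1 to 3 are red in Adcy1 and Gabbr2.

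Marker genes of the cells in the dissected tissue were summed per library. The 6 markers of cortical excitatory neurons gave 2616 to 2973 CPM in WT and 2536 to 2887 in ErbB4 KO, and the 6 of cortical progenitors 985 to 1222 and 939.8 to 1142. The progenitor sums of ErbB4 KO replicates 1 to 3, the libraries in which Adcy1 and Gabbr2 were above every WT library, were below every WT library, and that of replicate 4 was not. The 6 progenitor markers were all lower by sign, with log2 fold changes from -0.27 (Pax6) to -0.05 (Mki67) and adjusted p of 0.81 or more from edgeR. The unadjusted p of Pax6 was 0.00626, and 0.058 or more for the other 5. Of 15 markers of ganglionic eminence and striatum, in which Gnal, Pde10a and Adcy5 are also abundant, 14 were in the table, and their sums of 729 to 923 CPM in WT and 736 to 923 in ErbB4 KO overlapped fully. The 6 vessel markers gave 119 to 125 and 122 to 132 CPM, the 5 microglia markers 37.0 to 42.6 and 39.2 to 44.8, and the 8 red blood cell markers 33.2 to 58.0 and 23.2 to 36.7, with Hba-a1 and Hba-a2 at 0. The red blood cell sums of ErbB4 KO replicates 1 to 3 were likewise below every WT library, led by the embryonic globin genes Hbb-y (log2 fold change -1.72, unadjusted p = 0.00271, adjusted p = 0.81 from edgeR) and Hba-x (-1.23, unadjusted p = 0.00221, adjusted p = 0.74). The 5 meningeal markers gave 10.4 to 11.9 and 10.2 to 18.2 CPM. The 4 markers of hippocampus and cortical hem gave 14.4 CPM in WT replicate 1, the lowest of the 8 libraries, 31.5 to 36.2 in the other WT libraries and 26.2 to 597 in ErbB4 KO, and Prox1, one of the 4, had 11.2 CPM in WT replicate 1 and 17.6 to 22.6 in the other libraries. In ErbB4 KO replicate 3, Ttr, a choroid plexus gene, was at 572 CPM, against 0.571 to 8.76 in the other libraries. The part of these values in the differences of the module was not tested.

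Another 105 genes of the pathway were examined as a list, and 94 of them passed the filter. Of the 94, 65 (69.1%) were higher in ErbB4 KO by sign, with a median log2 fold change of 0.06, and 0 had an adjusted p under 0.05 in edgeR. The median was 0.03 without WT replicate 1, where 60 of 96 were higher, and 0.10 without WT replicate 2. An unadjusted p under 0.05 was seen in 5 (5.32%, against 5.53% of all genes). Adora1, the Gi-coupled adenosine A1 receptor, had 39.0, 45.5, 39.5 and 44.2 CPM in WT and 53.5, 55.6, 53.1 and 51.1 CPM in ErbB4 KO, so that the groups did not overlap. With edgeR the log2 difference was 0.34 (SE 0.068) and the adjusted p was 0.469, and DESeq2 called it with an adjusted p under 0.05 (0.0025). The other 4, named after their values were seen, were the PKA inhibitor Pkia (0.15), the PKA anchor Akap7 (0.29) and Rgs6 (0.22), which were higher, and Rgs16 (-0.21), which was lower.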

How the data were processed

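RNA was sequenced from the dorsal cortex of E15.5 embryos in 8 libraries, 4 labelled WT and 4 labelled ErbB4 KO. The authors made libraries from polyA RNA that keep no strand, aligned the single-end reads (HISAT, mm9) and counted those over genes (HTSeq). The deposited files hold raw counts per gene symbol, and how reads shared by overlapping genes were counted is not given in the sources used here. The authors' table of fold changes and p-values was not used.

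The test was the quasi-likelihood F test of edgeR 4.0.16 (R 4.3.3), after TMM scaling (factors from 0.994 to 1.01) and filterByExpr (count at least 10, total at least 15), with Benjamini-Hochberg adjustment over all 14696 genes kept and a threshold of 0.05. The common biological coefficient of variation was 10.7%. The SE of a log2 fold change was obtained from the estimate and its F statistic. Non-overlap was read from TMM-scaled CPM in the main test, and under another normalization from values scaled that way. Transcript lengths came from GENCODE vM1 (NCBIM37, mm9). Alternatives were RLE and upper-quartile normalization, no filter, 10 counts in 4 libraries, DESeq2 1.42.0, limma-voom 3.58.1, the replicate number as a block, an Xist covariate, a transcript length trend removed per library by lowess (span 0.3), and each library left out in turn.

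All 44 genes are named, other pathway genes only with an adjusted p under 0.05, or with an unadjusted p under 0.05 and no overlap, and otherwise as stated. The members and lists were chosen with earlier results of these data known. No pair of libraries of the same genotype agreed within sampling noise (chi-square per gene of 6.43 or more). The steps were run on simulated counts with changes larger than any of the module. That run does not measure their power for differences as small as those given here. Counting error is part of the fitted model. Python 3.11.15 and matplotlib 3.10.9 drew the figures.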

Additional observations from a re-analysis of the deposited data

Results flagged for a closer look

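In 5 of 88 groups of 4 libraries (44 genes in each genotype), a library lay far from the other 3 of its group by Dixon's test at its 95% critical value, and chance alone gives about 1 in 20. Prkar2a had 110.4 CPM in WT replicate 1, against 131.4 to 133.4 in the other WT libraries. It had 134.3 CPM in ErbB4 KO replicate 4, against 130.1 to 130.4 in the other ErbB4 KO libraries. Gna11 had 159.1 CPM in WT replicate 4, against 147.6 to 148.3. Crebbp had 50.36 CPM in WT replicate 1, against 73.74 to 78.06, and 84.65 CPM in ErbB4 KO replicate 2, against 73.84 to 75.16.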

How the results depend on the processing

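Over 17 alternatives, 700 of 748 log2 fold changes of the 44 genes kept their direction and 48 did not. The 48 were in 17 genes, whose largest log2 fold change was 0.16, and 27 genes kept their direction in every alternative run. No member had an adjusted p under 0.05 in any alternative (lowest 0.174, Adcy1 in DESeq2). Genes called over all genes tested were 4 in edgeR, 24 in DESeq2, 2 with the length trend removed, 1 with RLE, upper-quartile normalization or the Xist covariate, and 1 to 13 with a library left out. Members with an unadjusted p under 0.05 were 0 with the Xist covariate and 1 to 8 with a library left out. Members whose libraries did not overlap were 3 with RLE or DESeq2 (3.37% of all genes), 1 with upper-quartile normalization (3.27%), 4 with no filter (2.87%) and 2 to 10 with a library left out. DESeq2 called 1 other pathway gene. The cause of these moves was not tested.

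Same-numbered libraries had correlations of their deviations of 0.0837, 0.135, 0.0476 and 0.0236, against -0.187 to 0.154 between libraries of different numbers. These values do not decide whether the replicate numbers pair the libraries, so the block was run only as an alternative. With the replicate block, 1 gene was called over all genes tested and 8 members had an unadjusted p under 0.05 (6.97% of all genes), and the Creb5 log2 fold change was 9.19e-04.

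With the Xist covariate the median was 0.043 for the Gα subunits, 0.049 for the Gβ and Gγ subunits and 0.061 for the CREB and ATF genes. That of the RGS genes turned with it, to 0.023. With a library left out the median of the CREB and ATF genes was from -0.016 to 0.089. That of the RGS genes was then from -0.115 to -0.047. Directions turned with the length trend removed in Adcy6 (-0.032), Creb1 (-0.060), Creb5 (0.0025), Gng3 (0.014) and Rgs10 (0.080), and with the Xist covariate in Crem (0.016), Gna11 (-0.060), Gng3 (0.019), Pde4a (-0.096), Prkar2a (-0.0076), Rgs10 (0.26) and Rgs2 (0.023). Creb5 turned with upper-quartile normalization (0.0037) and DESeq2 (0.0061), and Rgs10 with limma-voom (0.011). With a library left out, log2 fold changes were from -0.020 to 0.063 for Adcy6, -0.22 to 0.038 for Adcy7, -0.049 to 0.036 for Adcy8, -0.028 to 0.065 for Atf4, -0.029 to 0.089 for Creb1, -0.19 to 0.18 for Creb5, -0.074 to 0.065 for Crem, -0.022 to 0.040 for Gnai3, -0.054 to 0.0078 for Gnas, -0.013 to 0.040 for Gnb1, -0.11 to 0.052 for Gng3, -0.12 to 0.32 for Pde1c, -0.014 to 0.072 for Prkar2a and -0.098 to 0.061 for Rgs10. Low genes such as Adcy7, at 3.32 to 5.68 CPM, rest on few counts (93 to 215 per library for Adcy7), and the part of depth was not tested.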
